A study of Homo sapiens with 20 samples.

Results

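CRYAB, the alpha-B crystallin gene, and 5 of its small heat shock relatives (HSPB1, HSPB3, HSPB6, HSPB7 and HSPB8) were followed in B5/589 cells as a p53 transgene was switched on. The 6 genes are a small set out of 18417 genes measured. They were chosen by symbol, CRYAB because its signal was known to stand far above that of uninduced cells in these arrays, and the others because they belong to its family. What is said of CRYAB is therefore a description with no test. The family name chose the 5 relatives, with results of these arrays known, so their tests are no independent evidence.

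B5/589 is an immortalized human mammary epithelial line, here carrying a p53 transgene that doxycycline induces. The study was about how the amount of p53 bears on the choice of a cell between arrest and apoptosis. There were 5 groups of 4 arrays. Uninduced cells received 0 ng of doxycycline and were collected at 24 h, and cells given 3 ng or 5 ng were collected at 12 h and at 24 h. The labels give the doses in ng with no volume. All groups carried the transgene and grew in serum with added EGF, and medium with or without doxycycline was renewed every 24 h. The promoter in front of the transgene, and whether the line is 1 clone, are not given in the sources used here. No label states that a group's arrays are separate cultures. The p-values below therefore measure only how these samples spread, and that spread may be technical.

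Small heat shock proteins are chaperones that need no ATP. They share a conserved alpha-crystallin domain, assemble into oligomers, and hold unfolding proteins in a soluble state until ATP-driven chaperones such as HSP70 refold them. CRYAB is abundant in the eye lens and in heart and skeletal muscle, where it protects intermediate filaments, and it is also known from basal-like breast tumours. HSPB1, also called HSP27, is made in most epithelial cells and is phosphorylated by the kinase MAPKAPK2. HSPB8 works with the cochaperone BAG3 in the selective autophagy of misfolded proteins, while HSPB3, HSPB6 and HSPB7 are known mainly from muscle.

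Heat shock factors bind elements built of GAA and TTC blocks in alternation, and the stretch before the start of transcription is shown for HSPB8, the relative that passed the test below, and for HSPB1, which was bright on every array and did not. Each is the 250 bases before the RefSeq start in GRCh38.p14, on the plus strand, at chr12:119178681-119178930 for HSPB8 and chr7:76302423-76302672 for HSPB1. Capitals mark a match to GAANNTTC.
HSPB8: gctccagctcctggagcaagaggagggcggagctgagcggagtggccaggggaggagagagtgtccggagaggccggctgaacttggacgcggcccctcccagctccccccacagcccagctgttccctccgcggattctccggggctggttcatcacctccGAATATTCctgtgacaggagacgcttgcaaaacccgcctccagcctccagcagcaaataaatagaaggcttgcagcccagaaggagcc
HSPB1: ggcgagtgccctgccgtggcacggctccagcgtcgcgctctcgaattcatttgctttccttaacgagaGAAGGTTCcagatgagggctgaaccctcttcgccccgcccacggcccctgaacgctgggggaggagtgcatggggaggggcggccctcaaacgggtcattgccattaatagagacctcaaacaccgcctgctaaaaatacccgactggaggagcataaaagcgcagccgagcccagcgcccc
The match begins 88 bases before the start in HSPB8 and 182 bases before it in HSPB1. Of the 6 genes, 5 had an entry in the RefSeq promoter table, all but CRYAB. Both strands were searched, and GAANNTTC and TTCNNGAA are each their own reverse complement. HSPB6 also held GAANNTTC, 196 bases before its start, together with TTCNNGAA at 210 bases. HSPB3 held TTCNNGAA at 242 bases, and HSPB7 held neither. Of 35116 promoters of the same length, 5.78% held GAANNTTC and 6.62% held TTCNNGAA. The p53 decamer, the unit that is paired in full p53 sites and that 5.57% of the promoters matched, had a match in HSPB3 and in none of the other 4. A match of letters is a description and does not show that a factor binds there.

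The arrays measured total RNA as log2 signals, on which 1 unit is a doubling. The mammary epithelial identity was checked with 8 markers (EPCAM, CDH1, KRT5, KRT14, KRT8, KRT18, LAMB3 and ITGA6), which lay above the array's median on all 20 arrays. Of 8 immune and endothelial markers, PTPRC, CD3E, CD79A, PECAM1, VWF and CDH5 lay below it on all 20, while CD68 lay above it on all 20 and CD14 on 19. Of 3 p53 targets, CDKN1A had group means of 8.62 at 0 ng and 10.05 at 5 ng for 24 h, TP53I3 7.96 and 11.49, and MDM2 12.09 and 12.56, and all 3 rose at 5 ng (limma with Benjamini-Hochberg, adjusted p from 1.99e-13 to 0.0174). Array medians ran from 4.54 to 5.54, and their means were 5.07 at 0 ng, 5.15 and 4.96 at 12 h with 3 and 5 ng, and 4.85 and 4.80 at 24 h with 3 and 5 ng. The median of all genes was accordingly 0.24 lower at both doses than at 0 ng at 24 h, and 0.08 and 0.07 higher after quantile normalization, which gives every array the same distribution of values. Values below are as deposited unless quantile normalization is named.

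In uninduced cells the 4 CRYAB signals were 3.26, 3.52, 3.65 and 4.64. At 12 h they were 7.08, 7.60, 7.34 and 8.23 with 3 ng, and 8.80, 8.66, 9.07 and 9.31 with 5 ng. At 24 h they were 8.73, 8.55, 8.87 and 8.54 with 3 ng, and 10.14, 10.22, 10.27 and 10.65 with 5 ng. Every induced array was thus above every uninduced array, and the 4 uninduced arrays were the only ones of 20 on which CRYAB lay below the array's median. The spread within groups was small beside the steps between them, with SDs of 0.60 at 0 ng, 0.49 and 0.29 at 12 h with 3 and 5 ng, and 0.16 and 0.23 at 24 h with 3 and 5 ng.

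Ordered by mean, the CRYAB groups ran from 0 ng (3.77) through 3 ng at 12 h (7.56), 3 ng at 24 h (8.67) and 5 ng at 12 h (8.96) to 5 ng at 24 h (10.32). The neighbours 3 ng at 24 h and 5 ng at 12 h overlapped, and no other pair of the 5 groups did. At 24 h, 1.5% and 4.94% of all genes had their 3 ng and 5 ng arrays wholly above the uninduced arrays. The share was 8.31% for 5 ng above 3 ng at 24 h, and 3.15% for 24 h above 12 h at 5 ng. Shares for the other pairs are not given here. At 24 h CRYAB stood 4.91 ± 0.26 above uninduced cells with 3 ng (SE of the model fitted to all arrays, n = 4 in each group), a 29.96-fold difference, and 6.55 ± 0.26 with 5 ng, a 93.9-fold difference. In RNA from a whole culture, more CRYAB RNA per cell and more cells that carry it cannot be told apart. As a rank among the 18417 genes, which the choice of CRYAB used, both were the highest difference of any gene.

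**Figure D1:**
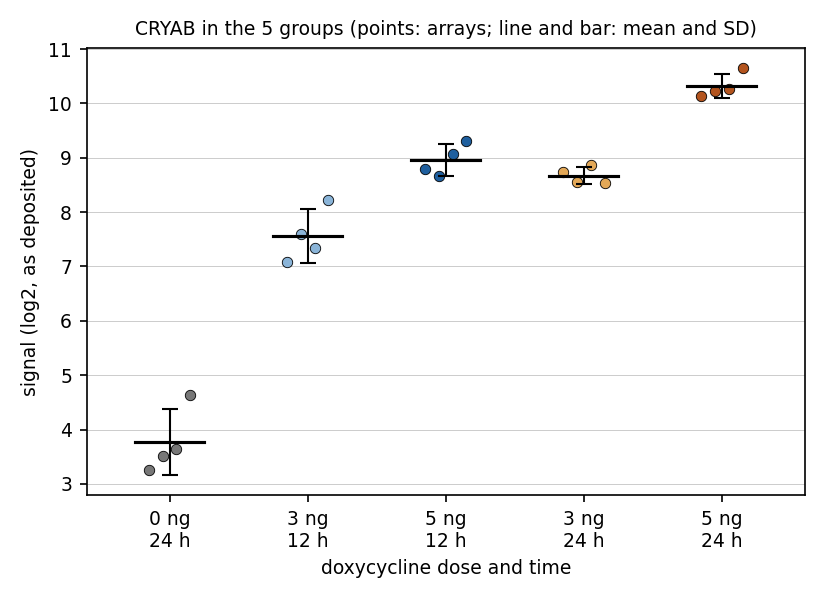
CRYAB signal (log2, as deposited) on each of the 20 arrays in the 5 groups of doxycycline dose and time, with points for arrays and a line and bar for the mean and SD. The uninduced arrays lie between 3.26 and 4.64, the 5 ng arrays at 24 h between 10.14 and 10.65, and only 3 ng at 24 h and 5 ng at 12 h overlap.

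Much of the CRYAB difference was already present at 12 h. The 12 h groups can be set only against uninduced cells of 24 h, so these differences hold time as well as dose. CRYAB was 3.80 ± 0.26 above uninduced cells with 3 ng at 12 h, which is 13.9-fold, and 5.19 ± 0.26 above them with 5 ng, which is 36.6-fold. From 12 h to 24 h it was higher by a further 1.11 ± 0.26 at 3 ng (2.16-fold) and 1.36 ± 0.26 at 5 ng (2.57-fold).

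The CRYAB mean was higher with 5 ng than with 3 ng at both times. By the rule used for other genes below, its step passed at 24 h but not at 12 h as deposited. It passed at both times after quantile normalization. As CRYAB was chosen with these results known, this is no test of it. The 5 ng arrays stood 1.40 ± 0.26 above the 3 ng arrays at 12 h, or 2.63-fold, and 1.65 ± 0.26 above them at 24 h, or 3.13-fold. The step at 24 h minus the step at 12 h was 0.25 ± 0.36, with a 95% interval from -0.51 to 1.01 given as a description. CRYAB ranked the third among all genes by its dose step at 12 h and the sixth at 24 h. The 24 h arrays with doxycycline were the dimmest on average, with mean medians of 4.85 and 4.80 against 5.07 at 0 ng. Those of 3 ng at 12 h, where CRYAB was also above uninduced cells, were the brightest (5.15). After quantile normalization CRYAB stood 5.20 above uninduced cells with 3 ng and 6.71 with 5 ng at 24 h, and its dose step was 1.45 at 12 h and 1.51 at 24 h.

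Of the 5 relatives, HSPB8 was the one that passed the test as deposited. Its signals were 5.00, 5.78, 5.31 and 5.65 at 0 ng. They were 5.72, 6.27, 5.63 and 6.23 with 3 ng and 5.70, 6.35, 6.36 and 6.48 with 5 ng at 12 h. At 24 h they were 6.04, 6.51, 6.25 and 6.18 with 3 ng, and 6.54, 6.55, 6.49 and 7.33 with 5 ng. Both 24 h groups with doxycycline lay wholly above the uninduced arrays. The group means rose in the order 0 ng (5.44), 3 ng at 12 h (5.96), 5 ng at 12 h (6.22), 3 ng at 24 h (6.25) and 5 ng at 24 h (6.73), and each group overlapped its neighbours in that order. The signal lay above the array's median on 19 of 20 arrays.

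HSPB8 rose by 0.81 ± 0.23 (SE, n = 4 in each group) with 3 ng at 24 h, which is 1.75-fold (limma with Benjamini-Hochberg over all genes, adjusted p = 0.0117). A gene is called here where this adjusted p is under 0.05. It was 1 of the 5 relatives called, against 1.5% of all genes called higher in this comparison, and 1.5% of all genes had 4 arrays wholly above the other 4. Without uninduced replicate 1 its difference was 0.67 and its adjusted p in limma 0.0544. The difference was 1.10 after quantile normalization, which called 15.4% of all genes higher.

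With 5 ng at 24 h HSPB8 rose by 1.29 ± 0.23, which is 2.45-fold (limma, adjusted p = 0.000157), and it was again 1 of 5 relatives called, beside 4.52% of all genes called higher and 4.94% whose groups did not overlap in this direction. With each array left out in turn the difference ran from 1.09 to 1.41, and limma's adjusted p from 8.45e-05 to 0.00108. Among all 18417 genes HSPB8 ranked 126 by its difference at 3 ng and 174 at 5 ng.

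At 12 h HSPB8 was above uninduced cells of 24 h by 0.79 ± 0.23 with 5 ng, which is 1.73-fold (limma, adjusted p = 0.022), where 3.44% of all genes were called higher. That call was lost without uninduced replicate 1 (0.64, limma adjusted p = 0.0916) or, of 5 ng at 12 h, without replicate 2 (0.75, adjusted p = 0.0508), replicate 3 (0.74, adjusted p = 0.06) or replicate 4 (0.70, adjusted p = 0.062), and the 2 groups overlapped. With 3 ng at 12 h HSPB8 stood 0.53 ± 0.23 above uninduced cells and was not called (limma, adjusted p = 0.21, with 1.57% of all genes called higher), but it was called after quantile normalization (0.49, adjusted p = 0.0481), where 6.61% of all genes were called higher.

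The dose step of HSPB8 was not called at either time. The 5 ng arrays stood 0.48 ± 0.23 above the 3 ng arrays at 24 h (95% interval 0.01 to 0.95, limma adjusted p = 0.529) and 0.26 ± 0.23 above them at 12 h (-0.21 to 0.73, adjusted p = 0.833). Limma called 0 of the 5 relatives in either dose step, while 2 of them (HSPB1 and HSPB8) at 24 h and 0 at 12 h had an unadjusted p under 0.05. Limma called 1.79% of all genes higher with 5 ng than with 3 ng at 24 h, and 0.0217% at 12 h.

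From 12 h to 24 h HSPB8 was higher by 0.28 ± 0.23 at 3 ng (limma, adjusted p = 0.495) and by 0.51 ± 0.23 at 5 ng (adjusted p = 0.345), where the 24 h arrays lay wholly above the 12 h arrays, as they did for 3.15% of all genes. Neither was called, where 0.0706% and 0.424% of all genes were called higher, and scaling changed that. After quantile normalization the differences were 0.61 (adjusted p = 0.0142) at 3 ng and 0.67 (adjusted p = 0.00694) at 5 ng, with 9.92% and 10.8% of all genes called higher. With each array centred on its median, the difference at 5 ng was 0.66 (adjusted p = 0.0198).

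HSPB1 was bright in every group and was not called in any comparison as deposited. Its signals were 11.70, 11.66, 11.61 and 12.06 at 0 ng, and at 12 h 11.43, 11.70, 11.37 and 11.71 with 3 ng and 11.60, 12.00, 11.66 and 11.72 with 5 ng. At 24 h they were 11.62, 11.62, 11.60 and 11.33 with 3 ng, and 11.71, 12.03, 11.99 and 11.79 with 5 ng. All 20 arrays thus lay within 11.33 to 12.06, and neither 24 h group with doxycycline was separate from the uninduced arrays.

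At 24 h HSPB1 differed from uninduced cells by -0.22 ± 0.14 with 3 ng (95% interval -0.51 to 0.08, limma adjusted p = 0.327) and by 0.12 ± 0.14 with 5 ng (-0.18 to 0.42, adjusted p = 0.589). After quantile normalization the first became 0.15 (adjusted p = 0.0888), with its sign turned, and the second 0.33 (adjusted p = 0.000281), which was called beside 20.6% of all genes called higher. The 4 arrays of 5 ng lay above the 4 of 3 ng at 24 h, as did those of 8.31% of all genes, with a difference of 0.34 ± 0.14 (limma, adjusted p = 0.411). The 12 h groups differed from uninduced cells by -0.21 ± 0.14 with 3 ng and -0.01 ± 0.14 with 5 ng, neither called (limma, adjusted p = 0.458 and 0.972).

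HSPB3, HSPB6 and HSPB7 were dim throughout and lay below the array's median on all 20 arrays, HSPB3 between 1.66 and 3.48, HSPB6 between 0.99 and 2.71 and HSPB7 between 1.48 and 3.88. The deposited values hold no detection call, so whether these signals exceed background cannot be read from them. HSPB3 ran from 2.04 to 2.82 at 0 ng and from 1.66 to 3.27 with 5 ng at 24 h. HSPB6 ran from 1.56 to 2.26 and from 0.99 to 1.78 in the same groups, and HSPB7 from 1.48 to 3.48 and from 1.53 to 3.71. All 5 groups of each gene overlapped one another in every pair compared.

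None of these 3 genes was called in any of the 9 comparisons, as deposited or after quantile normalization. With 5 ng at 24 h they differed from uninduced cells by 0.02 ± 0.30 (HSPB3), -0.36 ± 0.26 (HSPB6) and 0.03 ± 0.48 (HSPB7), with limma adjusted p of 0.975, 0.342 and 0.974. The 95% intervals reached from -0.61 to 0.65, -0.90 to 0.17 and -0.97 to 1.03, so a doubling of HSPB7 lies within its interval. With 3 ng the differences were 0.19 ± 0.30, -0.27 ± 0.26 and -0.01 ± 0.48. The 1 exception among the alternatives was HSPB6 from 12 h to 24 h at 3 ng, at -0.58 ± 0.26 (limma, adjusted p = 0.245), which was called (-0.84, adjusted p = 0.0355) without replicate 3 of 3 ng at 12 h.

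**Figure D2:**
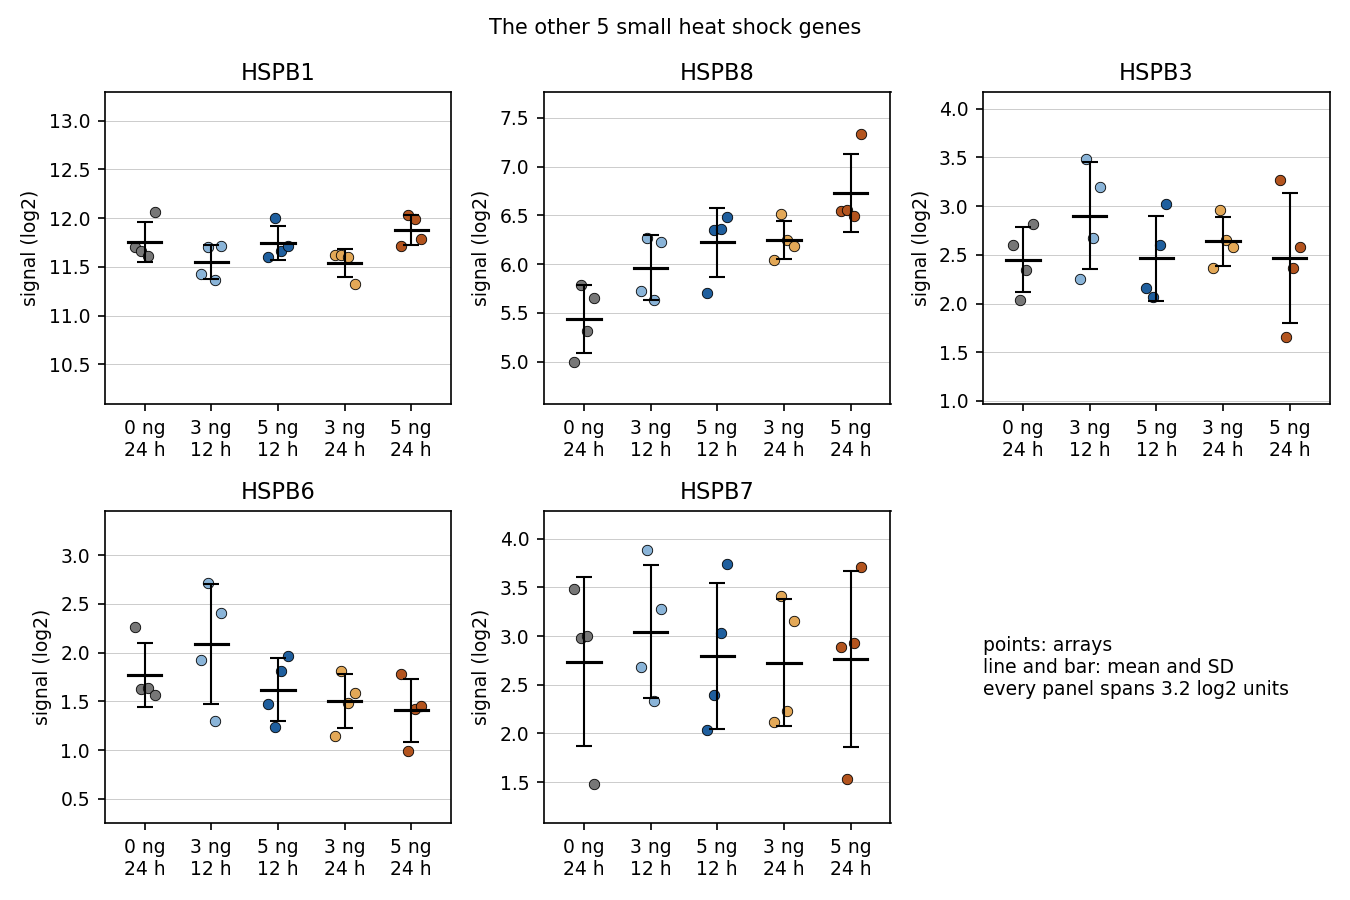
Signals (log2, as deposited) of HSPB1, HSPB8, HSPB3, HSPB6 and HSPB7 on the 20 arrays by group, with points for arrays and a line and bar for the mean and SD, and with every panel spanning the same number of log2 units. HSPB8 climbs from between 5.00 and 5.78 at 0 ng to between 6.49 and 7.33 with 5 ng at 24 h, HSPB1 stays within 11.33 to 12.06, and the groups of the other 3 overlap.

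**Figure D3:**
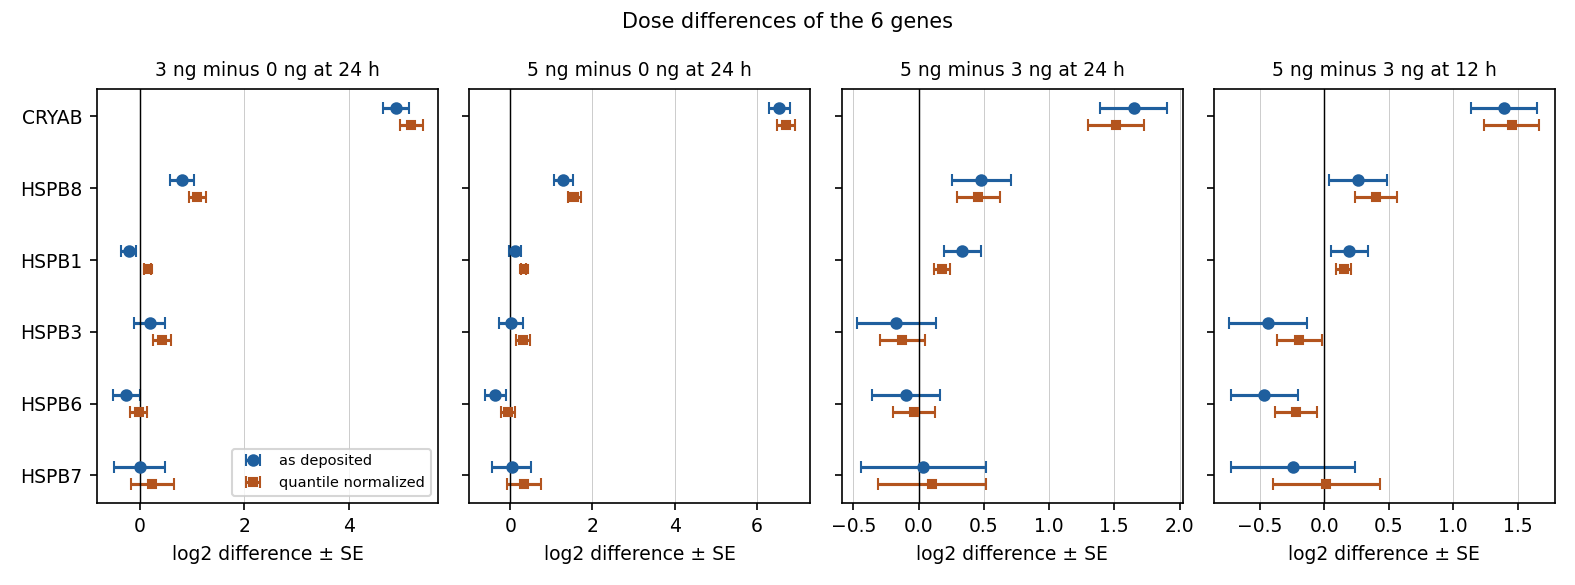
Log2 differences of the 6 genes (points, with SE bars, 4 arrays in each group) at 24 h against uninduced cells (left pair) and between the doses at each time (right pair), as deposited (circles) and after quantile normalization (squares), with a separate horizontal scale in each panel. CRYAB lies farthest right in all 4 panels, HSPB8 is next at both doses against 0 ng, and HSPB1 at 3 ng changes sign with the scaling.

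The genes most like CRYAB were picked as the closest of 18416 genes, so their lead over its relatives follows from the choice. Across the 20 arrays the genes whose signals ran most alike with CRYAB were CLCA2 (r = 0.989), PLTP (0.989), LCE1B (0.988), NSG1 (0.984), CES2 (0.984), RETSAT (0.981), LCE1C (0.979), CYFIP2 (0.977), ABCA12 (0.974) and SPATA18 (0.974). CLCA2 is a chloride channel accessory protein and a known p53 target. PLTP transfers phospholipids, LCE1B and LCE1C are late cornified envelope proteins of the epidermis, and ABCA12 carries lipids in keratinocytes. These correlations describe 20 arrays that share 5 group means and the arrays' brightness, and 7 of the 10 genes were also among the 10 closest after quantile normalization.

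Of the relatives, HSPB8 had r = 0.839 with CRYAB over the 20 arrays and ranked 204 of 18416 genes, and after quantile normalization r was 0.889 with a rank of 525. HSPB1 had r = 0.132 as deposited and 0.727 after quantile normalization. HSPB3 had 0.079, HSPB7 -0.004 and HSPB6 -0.277. Within groups, after removal of the group means, r with CRYAB was 0.557 for HSPB8, 0.482 for HSPB1, 0.455 for HSPB3, 0.131 for HSPB6 and -0.068 for HSPB7. Over the 10 genes named above it ran from 0.243 for LCE1C to 0.810 for SPATA18.

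CRYAB was chosen for its known large difference from uninduced cells. That this exceeded the differences of the genes that ran with CRYAB follows from that choice. With 5 ng at 24 h LCE1C stood 5.79 above uninduced cells, LCE1B 4.65, CLCA2 4.08, NSG1 3.91 and PLTP 3.32, where CRYAB stood 6.55 above them. The dose step at 24 h was 1.35 for NSG1, 1.34 for LCE1C and 1.32 for LCE1B, and 1.65 for CRYAB. These comparisons share their arrays, and the genes were picked for their likeness, so the values are given with no test.

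Around CRYAB on chromosome 11, the nearest measured genes in RefSeq's order were CFAP68, FDXACB1 and ALG9 on one side and DIXDC1, DLAT and PIH1D2 on the other. HSPB2, which lies head to head with CRYAB, is not analysed here. DIXDC1, a signalling protein of the Wnt pathway, had signals of 4.38, 4.41, 4.88 and 4.45 at 0 ng, and 5.28, 5.39, 5.67 and 5.60 with 5 ng at 24 h. It rose by 0.96 ± 0.18 with 5 ng at 24 h (limma, adjusted p = 0.000439) and by 0.95 ± 0.18 with 5 ng at 12 h (adjusted p = 0.00137), and with 3 ng at 24 h it differed by 0.39 ± 0.18 (adjusted p = 0.134), which was called after quantile normalization (0.61, adjusted p = 0.00501). DLAT, a subunit of pyruvate dehydrogenase, fell by 0.67 ± 0.19 with 3 ng (limma, adjusted p = 0.0115) and by 0.90 ± 0.19 with 5 ng at 24 h (adjusted p = 0.000904), and the first of these was not called after quantile normalization (-0.21, adjusted p = 0.062). As deposited, the other 4 neighbours were not called at either dose at 24 h, and ALG9, which adds mannose in the making of N-glycans, was called higher at both doses after quantile normalization (0.29 and 0.47, limma adjusted p = 0.000382 and 7.6e-07). Of all genes at 24 h, 1.5% and 4.52% were called higher and 23% and 23.5% lower at 3 ng and 5 ng as deposited. After quantile normalization 15.4% and 20.6% were called higher and 12.5% and 17.2% lower. With 5 ng at 12 h 3.44% were called higher as deposited.

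Of other genes listed beside the 6 by name, HSPB9, ODF1 and IFT25 (listed as HSPB11) were measured. Whether their proteins hold the alpha-crystallin domain was not examined. HSPB9 and ODF1, both known from the testis, lay below the array's median on all 20 arrays and were not called at either dose at 24 h, with differences at 5 ng of -0.02 ± 0.31 and -0.13 ± 0.17 (limma, adjusted p = 0.979 and 0.625). IFT25, a part of the intraflagellar transport machinery of cilia, had signals of 6.68, 6.66, 6.36 and 6.74 at 0 ng, and 5.56, 5.67, 5.14 and 5.76 with 5 ng at 24 h. At 24 h IFT25 fell by 0.85 ± 0.16 with 3 ng (limma, adjusted p = 0.000779) and by 1.08 ± 0.16 with 5 ng (adjusted p = 3.69e-05). In these comparisons 23% and 23.5% of all genes were called lower. After quantile normalization it also fell (-0.51 and -0.72, limma adjusted p = 0.00178 and 3.28e-05), where 12.5% and 17.2% of all genes were called lower.

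Most of the other chaperones called at 24 h were lower as deposited, and the split between higher and lower calls depended on the scaling. The 58 genes in 6 lists were HSPB9, ODF1 and IFT25, the HSP70, HSP90 and HSP40 families, chaperonins, and BAG proteins and cochaperones. With 3 ng at 24 h 0 were called higher and 28 lower, beside 1.5% and 23% of all genes. With 5 ng at 24 h 2 were called higher and 22 lower, beside 4.52% and 23.5% of all genes. Their median difference was -0.43 with 3 ng and -0.32 with 5 ng, where the medians of all genes were both -0.24. After quantile normalization 11 were called higher and 13 lower with 3 ng, and 16 higher and 20 lower with 5 ng, where 15.4% and 20.6% of all genes were called higher and 12.5% and 17.2% lower at the 2 doses, with medians of -0.04 and -0.05. The call and direction were kept by 13 of the 28 at 3 ng and by 21 of the 24 at 5 ng. The count at 3 ng was 16 without uninduced replicate 1, 10 without uninduced replicate 4, and 13 and 11 without replicates 3 and 4 of 3 ng. The count at 5 ng was 15 and 13 without uninduced replicates 1 and 4, and 15 without replicate 3 of 5 ng.

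HSP70 chaperones and their HSP40 partners refold what small heat shock proteins hold. Of 14 HSP70 and HSP110 genes, 0 were called higher and 4 lower with 5 ng at 24 h, beside 4.52% and 23.5% of all genes. Quantile normalization called 6 higher and 3 lower, beside 20.6% and 17.2% of all genes. Those lower as deposited included HSPA14 (-1.30 ± 0.18, limma adjusted p = 1.03e-05) and HSPA2 (-0.67 ± 0.21, adjusted p = 0.0225). HSPA6, a strictly heat-inducible HSP70, ran from 5.10 to 7.03 over the 20 arrays and differed by 0.36 ± 0.28 with 5 ng (adjusted p = 0.402), and by 0.67 after quantile normalization (adjusted p = 0.045). It was singled out after its values were seen. Of 13 HSP40 genes, DNAJB9 (0.48 ± 0.17, limma adjusted p = 0.0427) and DNAJB2 (0.47 ± 0.15, adjusted p = 0.0194) rose and 2 fell with 5 ng, and 7 were called higher and 1 lower after quantile normalization.

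Of 10 chaperonin genes, whose products form the folding chambers of mitochondria and cytosol, 0 were called higher and 8 lower with 5 ng at 24 h on both scales, with HSPE1 (-0.88 ± 0.17, limma adjusted p = 0.000529) and CCT6A (-0.73 ± 0.18, adjusted p = 0.00425) among them. In that comparison 23.5% of all genes were called lower as deposited and 17.2% after quantile normalization. In the HSP90 family, TRAP1, the mitochondrial member, fell by 0.94 ± 0.15 (limma, adjusted p = 5.7e-05) and the other 3 were not called as deposited. Between 3 ng and 5 ng, limma called 0 of the 58 chaperone genes at 24 h and 0 at 12 h as deposited, while 3 and 2 had an unadjusted p under 0.05. Of all genes, 1.79% were called higher at 24 h and 0.0217% at 12 h. The same rule did not pass the CRYAB step at 12 h either, while it passed that at 24 h. Quantile normalization called 6 of the chaperone genes at 24 h and 0 at 12 h, and the share of all genes on that scale is not given here.

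BAG3, the partner of HSPB8, had signals of 10.09, 9.89, 9.91 and 10.28 at 0 ng and of 10.37, 10.21, 10.34 and 10.35 with 5 ng at 24 h, so the groups overlapped. It differed by -0.11 ± 0.13 with 3 ng (limma, adjusted p = 0.655) and by 0.28 ± 0.13 with 5 ng (adjusted p = 0.126), and after quantile normalization by 0.33 (adjusted p = 0.00392) and 0.58 (adjusted p = 9.12e-06), both called higher. Among the other 13 BAG proteins and cochaperones, BAG2, an inhibitor of the ubiquitin ligase CHIP, fell by 1.61 ± 0.20 with 5 ng (limma, adjusted p = 2.88e-06), and BAG4 fell by 0.99 ± 0.16 (adjusted p = 4.78e-05) and FKBP4, an HSP90 cochaperone, by 0.90 ± 0.16 (adjusted p = 0.000163). Both BAG genes and FKBP4 were also lower after quantile normalization.

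**Figure D4:**
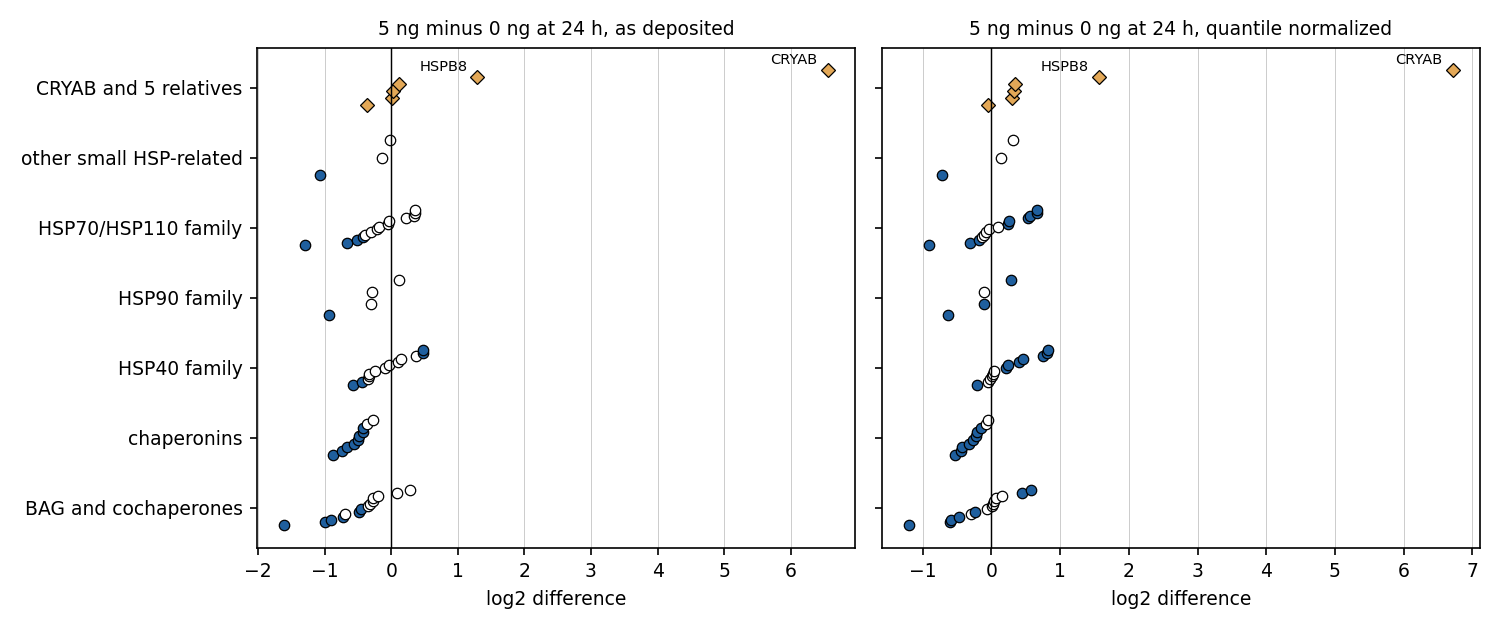
Log2 differences of 5 ng minus 0 ng at 24 h for CRYAB and its 5 relatives (diamonds, drawn filled whether called or not) and for the 58 other chaperone genes by class (circles, filled where limma's adjusted p was under 0.05, open otherwise), as deposited on the left and after quantile normalization on the right. Height within a row only separates the points. CRYAB at 6.55 and HSPB8 at 1.29 lie to the right of all circles, and the chaperonins lie left of 0 in both panels.

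The regulators of the family were measured in 6 genes. HSF1, the main heat shock factor, fell by 0.44 ± 0.14 with 3 ng at 24 h (limma, adjusted p = 0.023), differed by -0.34 ± 0.14 with 5 ng (adjusted p = 0.0677), and differed by 0.04 and 0.05 after quantile normalization, neither called. MAPKAPK2, the kinase of HSPB1, fell by 0.60 ± 0.14 with 3 ng (adjusted p = 0.0033) and by 0.75 ± 0.14 with 5 ng (adjusted p = 0.000303), and after quantile normalization it was called at 5 ng (-0.36, adjusted p = 0.0016) and not at 3 ng (-0.16, adjusted p = 0.181). MAPKAPK5 fell by 0.81 ± 0.17 with 5 ng (limma, adjusted p = 0.000757). Of 6 measured clients and partners of the intermediate filament system (VIM, DES, GFAP, BFSP1, BFSP2 and SYNPO2), limma called 0 at either dose at 24 h and 0 had an unadjusted p under 0.05. After quantile normalization 1 was called higher at each dose, beside 15.4% and 20.6% of all genes at 3 ng and 5 ng.

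No marker of the tissues in which CRYAB is best known, muscle and lens, was called higher as deposited. Of 11 striated muscle markers, limma called 0 at either dose at 24 h, with 1 at 3 ng and 2 at 5 ng at an unadjusted p under 0.05. After quantile normalization 1 was called higher at each dose, beside 15.4% and 20.6% of all genes at 3 ng and 5 ng. DES stood on this list and on that of the intermediate filament system, so the counts of these lists share a gene. Its means after quantile normalization were 5.66 at 0 ng, 5.91 with 3 ng and 5.94 with 5 ng at 24 h. The mean signal of the muscle list ran from 4.11 to 4.39 on the uninduced arrays and from 3.81 to 4.21 with 5 ng at 24 h. On all 20 arrays DES, ACTA1, TNNT1 and TNNT3 lay above the array's median and MYOD1, CKM, MYH2, MYH7, TTN and RYR1 below it, and MYOG lay above it on 19. Of 12 lens crystallins outside the alpha family, 0 were called higher and 3 lower with 5 ng, where 23.5% of all genes were called lower. After quantile normalization 1 was called lower, beside 17.2% of all genes. CRYGS, a gamma crystallin, differed by -1.03 ± 0.32 with 3 ng (limma, adjusted p = 0.0205) in groups that overlapped.

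Some markers of mammary epithelial and contractile cells were also called. With 5 ng at 24 h KRT5 rose by 0.66 ± 0.13 (limma, adjusted p = 0.000688) and KRT14 by 0.56 ± 0.12 (adjusted p = 0.00125), both basal keratins, and the luminal keratin KRT8 by 0.53 ± 0.12 (adjusted p = 0.00219), while EPCAM fell by 0.85 ± 0.21 (adjusted p = 0.00424), and of the 8 mammary epithelial markers 5 were called higher and 1 lower, beside 4.52% and 23.5% of all genes. With 3 ng at 24 h 0 were called higher and 1 lower, beside 1.5% and 23% of all genes. After quantile normalization 6 were called higher and 1 lower at each dose. On that scale 15.4% and 20.6% of all genes were called higher, and 12.5% and 17.2% lower, at 3 ng and 5 ng. Of 6 myoepithelial contractile markers with 5 ng at 24 h, MYLK rose by 1.18 ± 0.18 (limma, adjusted p = 3.76e-05) and ACTA2 by 0.85 ± 0.16 (adjusted p = 0.000424). The other 4 were not called, with a median of -0.03 over the 6, and 4.52% of all genes were called higher. The mean of the mammary list ran from 11.39 to 11.84 on uninduced arrays and from 11.70 to 11.86 with 5 ng at 24 h, and that of the myoepithelial list from 5.23 to 5.77 and from 5.43 to 5.91, with CNN1 and MYH11 below the array's median on all 20 arrays. The part of these shifts in the CRYAB and HSPB8 differences was not tested.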

How the data were processed

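Total RNA of 20 samples was hybridised to 20 Affymetrix arrays, and the authors deposited log2 signals, 1 for each of 33297 transcript clusters. The submitters' processing notes name Affymetrix Power Tools, GCRMA, GCOS and limma, and how the arrays were scaled to each other is not stated in them. Of the clusters, 19460 had 1 gene symbol, 1754 had several and 12083 were not listed in the platform annotation. The brightest single-symbol cluster stood for each gene, leaving 18417 genes, and each of the 6 genes described had 1. The order of genes and the promoters came from RefSeq tables of GRCh38.p14.

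A model with 1 mean per group was fitted to all 20 arrays as deposited in limma 3.58.1 (R 4.3.3, 15 residual degrees of freedom, eBayes), with Benjamini-Hochberg adjustment over 18417 genes and a threshold of 0.05. SEs and 95% intervals are those of this model, and the intervals are not adjusted for the number of genes. The comparisons with 0 ng share their uninduced arrays. Precision is limited by the number of arrays. The fit was checked on data with known answers. Alternatives were quantile normalization, centring of arrays on their medians, a replicate block, only the groups compared, removal of the dimmest 30% of genes, the mean of a gene's clusters, trend and robust eBayes, and each array left out in turn. No array was dropped or imputed otherwise.

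The members and lists were chosen with earlier results of these data known. Named were the 6 genes, HSPB9, ODF1 and IFT25, and up to 3 called genes of each list with the largest differences. Also named were the 10 genes most alike with CRYAB, its 3 nearest measured neighbours on each side and the p53 targets. BAG3 and HSPA6 were added after their values were seen, and marker lists are given by their position about the array median. Clusters with several symbols, and listed genes that no single-symbol cluster names, are not analysed here.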

Additional observations from a re-analysis of the deposited data

Results flagged for a closer look

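In each of the 30 groups of 4 arrays (6 genes, 5 groups), the outermost array was compared with the others, and 4 groups had an array that stood apart, meaning that its gap to the nearest array, as a share of the group's range, exceeded the 95% limit of Dixon's test. Chance sets apart about 1 group in 20. For HSPB8, the lowest of the 5 ng arrays at 12 h was 5.70, against 6.35 to 6.48 in the other 3, and the highest of the 5 ng arrays at 24 h was 7.33, against 6.49 to 6.55. For HSPB1, the lowest 3 ng array at 24 h was 11.33, against 11.60 to 11.62. For HSPB6, the highest uninduced array was 2.26, against 1.56 to 1.64. None of the CRYAB groups had such an array.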

How the results depend on the processing

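CRYAB kept its direction in all comparisons under every alternative run. Of 243 alternative values, 0 lay more than 1 residual SD of its arrays (0.39) from the value as deposited. The alternatives included 20 fits with 1 array left out, which can move a mean of 4 arrays only little, so this limit was a loose one. With alternatives included, its difference ran from 4.74 to 5.20 for 3 ng against 0 ng at 24 h, from 6.38 to 6.84 for 5 ng against 0 ng, from 1.51 to 1.71 for 5 ng against 3 ng at 24 h and from 1.24 to 1.62 at 12 h. Of the relatives' alternatives other than arrays left out, 283 kept their side of the threshold and 5 became calls, each given in the report (HSPB1 in 1, HSPB8 in 4). HSPB3, HSPB6 and HSPB7 have no value where the dimmest 30% of genes were removed. The count of called chaperone genes changed by more than 1.5 times in 14 of 63 such alternatives. After quantile normalization it was 12 in place of 2 from 12 h to 24 h at 3 ng, 16 in place of 1 at 5 ng, 12 in place of 3 for 3 ng at 12 h, 23 in place of 8 for 5 ng at 12 h, and 6 in place of 0 for 5 ng against 3 ng at 24 h. With arrays centred it was 10 in place of 28 for 3 ng at 24 h, 16 for 3 ng at 12 h and 1 from 12 h to 24 h at 3 ng. With only the groups compared it was 0 for 3 ng at 12 h and 0 from 12 h to 24 h at 3 ng, and with trend and robust eBayes 13 for 5 ng at 12 h and 3 from 12 h to 24 h at 5 ng. The replicate block gave 1 from 12 h to 24 h at 3 ng and 2 at 5 ng. With arrays left out, the count ran from 10 to 36 for 3 ng and 13 to 27 for 5 ng at 24 h, 0 to 14 for 3 ng at 12 h, 0 to 5 and 1 to 3 from 12 h to 24 h at 3 ng and 5 ng, and 0 to 1 for 5 ng against 3 ng at 24 h. These counts hold both directions. Of all genes, quantile normalization called 9.92% and 10.8% higher from 12 h to 24 h at 3 ng and 5 ng, against 0.0706% and 0.424% as deposited. For 3 ng at 12 h it called 6.61% higher, against 1.57% as deposited. Shares of all genes for the other changed counts are not given here, so the changes are not read as particular to chaperones. The cause of the changes in the count was not tested.

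Replicate numbers were not treated as pairs, by a rule that asked a correlation of 0.1 of every same-numbered pair of deviations. The lowest correlation was between -0.179 and -0.098 for the 4 numbers, with medians from 0.02 to 0.093 and a highest value of 0.501. Outside its own group, not every array correlated best with its own number (10 of 20 did), a hint from the data and not the design. How many would do so with no pairing was not worked out. Whether same-numbered arrays shared handling was not tested. With the block, the calls of the 5 relatives did not change. The spread between arrays limits HSPB7 most among the 6 genes, with a residual SD of 0.78.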
